A study of Mus musculus with 6 samples.

Results

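The genes described here are 10 effector genes of cytotoxic and Th1 lymphocytes, chosen by symbol for their function: Gzma, Gzmb, Prf1, Nkg7, Klrd1, Klrk1, Ifng, Eomes, Tbx21 and Ccl5. All 10 were found among the 55401 gene IDs of the files. Their RNA was measured in bulk, as FPKM (fragments per kilobase of gene length, scaled to the fragments of the library), in cells isolated from the lamina propria of the mouse colon, the connective tissue layer beneath the epithelium. In 3 libraries the mice had received atorvastatin at 20 mg/kg, a statin that blocks cholesterol synthesis, and in 3 libraries the vehicle, 2% Tween 80. Dosing was by gavage on alternate days in both groups. All the mice were males of 5 to 6 weeks that carried Apc Min/+, a truncating mutation of 1 copy of the tumour suppressor Apc, so neither group was wild type. Whether each library is a different mouse is not in the labels, so the p-values rest on a spread between libraries that could be technical alone.

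Killer lymphocytes, that is NK cells and cytotoxic T cells, store perforin and granzymes in granules. On contact with a target, perforin opens its membrane and the granzymes enter and cleave proteins within. Receptors of the killer lectin-like family gate this release. The T-box factors T-bet (Tbx21) and eomesodermin (Eomes) direct the programme and, with it, interferon gamma (Ifng), the signature cytokine of Th1 cells. In the gut wall such genes are active in T cells, NK cells and innate lymphoid cells, and several are not limited to killers: regulatory T cells can make granzyme B, and macrophages can make the chemokine encoded by Ccl5.

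The libraries were not alike in every respect. Their summed FPKM was 355787 to 456064, with 13303 to 13703 genes at 1 FPKM or more. Vehicle library 3 stood apart, with a mean Pearson's r of 0.944 to the other 5 across genes, against 0.957 to 0.961 for the rest. Without it the log2 differences of Nkg7 (-0.57) and Klrk1 (-0.29) were close to those with it, while those of Ifng (-0.21), Gzma (-0.10) and Gzmb (-0.07) were nearer to 0 and that of Klrd1 (-0.64) was farther from it. Immunoglobulin genes took 27.9 to 47.9% of the summed FPKM with atorvastatin and 30.4 to 38.4% with vehicle. A list of 6 stress genes sensitive to tissue handling, among them the heat shock genes Hspa1a and Hspa1b, was higher on average with atorvastatin in 6 of 6 genes, summing to 5487 to 7669 FPKM with atorvastatin and 4820 to 4963 FPKM with vehicle, and its part in the results was not tested.

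With atorvastatin, 9 of the 10 genes had a lower mean on the log2(FPKM + 1) scale than with vehicle, but none passed the test over all genes. Prf1 was higher instead when libraries were scaled to equal summed FPKM without immunoglobulin genes, and the median log2 difference of the 9 genes tested was -0.24 as deposited and -0.03 once a trend on transcript length was removed. Nkg7, a membrane protein of cytotoxic granules, and Klrk1, the activating receptor NKG2D, were the 2 genes whose atorvastatin libraries all lay below all vehicle libraries. Ifng had the widest spread and the groups overlapped. In bulk RNA, fewer cells of a type and less RNA per cell cannot be told apart. The granzymes differed little, and Eomes, Tbx21 and Prf1 had nearly the same mean in both groups.

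The 300 bases around the RefSeq start sites of 4 of these genes are shown because the results turn on them: the genes whose groups did not overlap (Nkg7, Klrk1), the most abundant granule gene (Gzmb) and the gene that varied most (Ifng). RefSeq promoters were matched for 8 of the 10 genes, and each holds 250 bases before and 50 after the start site. Capitals mark matches, on either strand, to a T-box half-site (GGTGTGA), a Runx site (TGTGGT), an AP-1 site (TGAGTCA) and an interferon gamma activated sequence (TTCNNNGAA).

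Nkg7 promoter, GRCm38.p6 chr7:43436888-43437187, plus strand: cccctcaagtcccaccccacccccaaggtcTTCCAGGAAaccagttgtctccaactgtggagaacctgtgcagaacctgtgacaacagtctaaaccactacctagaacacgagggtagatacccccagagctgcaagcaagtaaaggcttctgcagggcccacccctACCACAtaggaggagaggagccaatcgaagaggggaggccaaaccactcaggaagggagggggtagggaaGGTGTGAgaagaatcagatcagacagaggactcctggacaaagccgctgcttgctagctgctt

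Klrk1 promoter, GRCm38.p6 chr6:129623815-129624114, minus strand: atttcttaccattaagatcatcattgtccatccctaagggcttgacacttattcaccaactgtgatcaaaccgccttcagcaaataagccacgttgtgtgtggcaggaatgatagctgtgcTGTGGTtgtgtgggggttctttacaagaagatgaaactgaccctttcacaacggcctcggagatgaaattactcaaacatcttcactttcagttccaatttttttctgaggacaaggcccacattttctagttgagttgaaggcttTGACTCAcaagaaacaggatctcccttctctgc

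Gzmb promoter, GRCm38.p6 chr14:56262285-56262584, minus strand: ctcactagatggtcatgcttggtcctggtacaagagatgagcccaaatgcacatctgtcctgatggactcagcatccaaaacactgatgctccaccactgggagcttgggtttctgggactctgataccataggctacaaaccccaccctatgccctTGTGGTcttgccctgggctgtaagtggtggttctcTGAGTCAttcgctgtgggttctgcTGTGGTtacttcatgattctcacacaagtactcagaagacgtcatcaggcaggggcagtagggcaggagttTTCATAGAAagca

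Ifng promoter, GRCm38.p6 chr10:118440796-118441095, plus strand: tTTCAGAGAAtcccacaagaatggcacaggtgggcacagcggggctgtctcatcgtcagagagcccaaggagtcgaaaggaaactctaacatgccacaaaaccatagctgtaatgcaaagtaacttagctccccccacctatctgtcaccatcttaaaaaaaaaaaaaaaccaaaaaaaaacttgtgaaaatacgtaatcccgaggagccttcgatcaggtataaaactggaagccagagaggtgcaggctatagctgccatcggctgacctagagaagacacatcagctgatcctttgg

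Positions count from the RefSeq start site, which for Nkg7 and Gzmb is not the start of the gene range behind the FPKM. That range starts at 43437073 for Nkg7, before its T-box half-site. For Gzmb, on the minus strand, it starts at 56262260, outside the window. The Nkg7 window held 1 T-box half-site, starting at base -13, which is found in 3.95% of 32544 mouse promoters of this length. It also held 1 Runx match at -83, a motif found in 16.7% of promoters, and 1 interferon gamma activated sequence at -220, found in 8.33%. The Klrk1 window held 1 Runx match at -129 and 1 AP-1 match at 18, a motif found in 5.19% of promoters. The Gzmb window held 2 Runx matches at -93 and -34, 1 AP-1 match at -58 and 1 interferon gamma activated sequence at 38. The Ifng window held 1 interferon gamma activated sequence, at -249, and no match to the other 3 motifs. These matches describe letters in the windows and say nothing of binding in these cells.

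**Figure D1:**
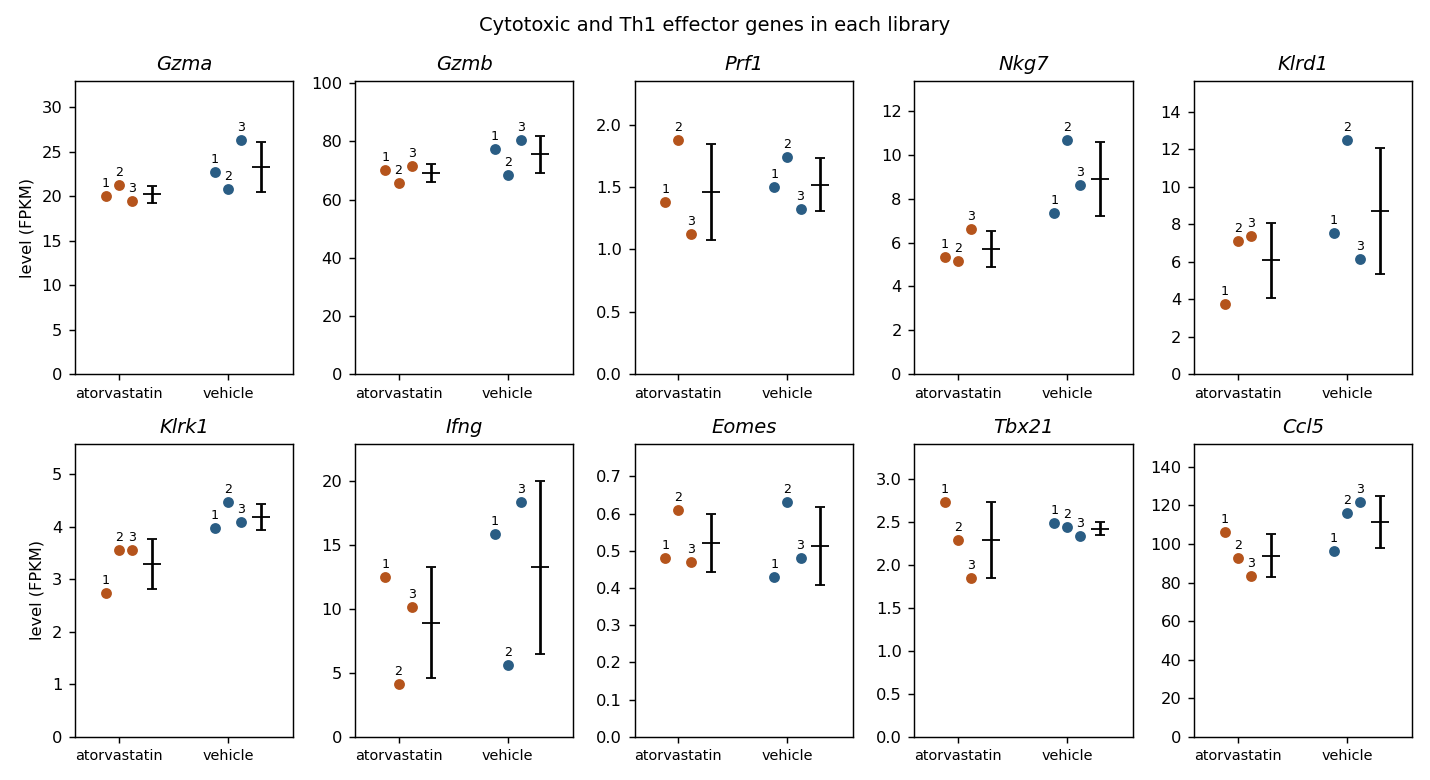
Level of each of the 10 effector genes (y axis, FPKM, from 0) in the 3 atorvastatin and the 3 vehicle libraries (x axis); points are libraries with their number, and bars are mean ± SD. The groups are apart in Nkg7 (5.14 to 6.63 against 7.37 to 10.7 FPKM) and Klrk1 (2.74 to 3.56 against 3.98 to 4.46 FPKM) and overlap in the other 8 genes.

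By level, averaged over all 6 libraries, the genes ran from Ccl5 (103 FPKM) through Gzmb (72.3), Gzma (21.8), Ifng (11.1), Klrd1 (7.39), Nkg7 (7.30), Klrk1 (3.73), Tbx21 (2.36) and Prf1 (1.49) down to Eomes (0.517). Ccl5 lay above Gzmb, Gzmb above Gzma and Gzma above Ifng in 6 of 6 libraries, and the steps from Nkg7 down to Eomes also held in all 6. Ifng, Klrd1 and Nkg7 were not separated, since Ifng exceeded Klrd1 in 4 of 6 libraries and Klrd1 exceeded Nkg7 in 4 of 6. Gzmb RNA thus stood far above that of the pore protein: the ratio of Gzmb to Prf1 FPKM was 49.9 ± 14.5 (SD, n = 3) with atorvastatin and 50.7 ± 10.9 (SD, n = 3) with vehicle. The ratio of Gzmb to Gzma was 3.43 ± 0.311 (SD, n = 3) with atorvastatin and 3.25 ± 0.178 (SD, n = 3) with vehicle.

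The comparison asks whether the statin altered effector genes of the lamina propria. It was tested with limma on log2(FPKM + 1) over the 13590 genes that reached 1 FPKM in at least 3 libraries, with Benjamini-Hochberg adjustment. Eomes did not reach that level, and the other 9 genes exceeded it in all 6 libraries. At an adjusted p under 0.05, 0 of the 9 and 0 of the 13590 genes (0%) were called. At an unadjusted p under 0.05, 1 of the 9 genes was lower with atorvastatin, beside 549 of all genes (4.04%), and 0 were higher, beside 425 (3.13%). When libraries were scaled to equal summed FPKM without immunoglobulin genes the counts over all genes became 254 (1.87%) lower and 832 (6.12%) higher. Among the 9 genes the count stayed at 1 lower, Nkg7. In 2 of the 9 genes all atorvastatin libraries lay below all vehicle libraries, beside 1203 of all genes (8.85%), and in 0 all lay above, beside 752 (5.53%). These counts turned with the scaling. With equal summed FPKM they were 0 of the 9 genes and 415 of all genes (3.05%) below, beside 406 (2.99%) above. Without immunoglobulin genes in the sum they were 1 of the 9 and 621 of all genes (4.57%) below, beside 1513 (11.1%) above. With median-ratio scaling the same 2 of the 9, Nkg7 and Klrk1, and 942 of all genes (6.93%) lay below, beside 1111 (8.18%) above. With so few genes these shares do not mark the 9 genes out. All 9 had a negative log2 difference, as had 53% of all genes tested, with a median of -0.24 against -0.02 over all genes.

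Gzma, a trypsin-like granzyme on chromosome 13 (113093825 to 113100981, build mm10), had 20.0, 21.3 and 19.4 FPKM in atorvastatin libraries 1, 2 and 3, against 22.7, 20.8 and 26.4 FPKM in vehicle libraries 1, 2 and 3. Its groups overlapped through atorvastatin library 2 and vehicle library 2, and the log2 difference was -0.19 (SE 0.12, limma adjusted p = 0.735). It was -0.10 without vehicle library 3 and -0.03 with the length trend removed. Gzmb, a granzyme that cleaves after aspartate and activates caspases (chromosome 14, 56258838 to 56262260), had 70.3, 65.6 and 71.6 FPKM with atorvastatin, against 77.4, 68.5 and 80.6 FPKM with vehicle. Here vehicle library 2 lay within the atorvastatin range. Its log2 difference of -0.12 had a 95% interval from -0.42 to 0.18, so neither a modest decrease nor a small increase is outside it. It was -0.05 with equal summed FPKM and -0.01 with the length trend removed. Prf1, which encodes perforin (chromosome 10, 61297833 to 61304680), had 1.38, 1.88 and 1.12 FPKM with atorvastatin, against 1.5, 1.74 and 1.32 FPKM with vehicle. Library 2 was the highest of both groups, and the log2 difference of -0.04 (SE 0.15) turned positive under 4 of the 18 alternative settings.

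Nkg7 (chromosome 7, 43437073 to 43438249), whose protein is needed for granule release, had 5.34, 5.14 and 6.63 FPKM with atorvastatin, against 7.37, 10.7 and 8.64 FPKM with vehicle. Every atorvastatin library was below every vehicle library, and the two-sided exact permutation p was 0.1, as low as a design of this size can reach. The mean was 5.70 ± 0.809 FPKM (SD, n = 3) with atorvastatin and 8.90 ± 1.68 FPKM (SD, n = 3) with vehicle, a ratio of 0.641. The log2 difference was -0.56 (SE 0.16, 95% interval -0.93 to -0.18), with an unadjusted p of 0.0106 and an adjusted p of 0.692 in limma, and it ranked 147 of 13590 by p. Vehicle library 2 set the upper end, and without it the log2 difference was -0.43. With libraries scaled to equal summed FPKM the groups overlapped and the difference was -0.49 (adjusted p = 0.999). With a trend on transcript length removed it was -0.38, and no effector gene then had an unadjusted p under 0.05. The ratio of Nkg7 to Gzmb FPKM was 0.0823 ± 0.00900 (SD, n = 3) with atorvastatin and 0.120 ± 0.0323 (SD, n = 3) with vehicle, with no overlap. Gzmb varied only 1.23-fold from its lowest to its highest library, so this ratio largely repeats the Nkg7 values and is no separate support. The share of all genes that stay apart after division by Gzmb was not computed. The ratio of Nkg7 to Gzma was 0.267, 0.242 and 0.341 with atorvastatin, against 0.324, 0.514 and 0.328 with vehicle, with overlap.

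Among the receptors, Klrk1 (chromosome 6, 129610323 to 129623864) encodes NKG2D, which recognises ligands that stressed and transformed cells display. It had 2.74, 3.56 and 3.56 FPKM with atorvastatin, against 3.98, 4.46 and 4.09 FPKM with vehicle, so the groups did not overlap (exact permutation p = 0.1, the smallest possible). The log2 difference was -0.28 (SE 0.12, 95% interval -0.57 to 0.01, limma adjusted p = 0.696). Without atorvastatin library 1, the lowest, it was -0.18. With equal summed FPKM, with or without immunoglobulin genes, the groups overlapped and the difference was -0.22 and -0.20. Its neighbour Klrd1 (129591782 to 129598775) encodes CD94, which pairs with NKG2 chains and recognises Qa-1. It had 3.76, 7.11 and 7.35 FPKM with atorvastatin, against 7.50, 12.5 and 6.13 FPKM with vehicle. The groups overlapped, atorvastatin library 1 was low and vehicle library 2 high, and the log2 difference of -0.45 (SE 0.31, adjusted p = 0.741) was small beside that spread. Without atorvastatin library 1 or without vehicle library 2 it was -0.18, and without vehicle library 3 it was -0.64.

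**Figure D2:**
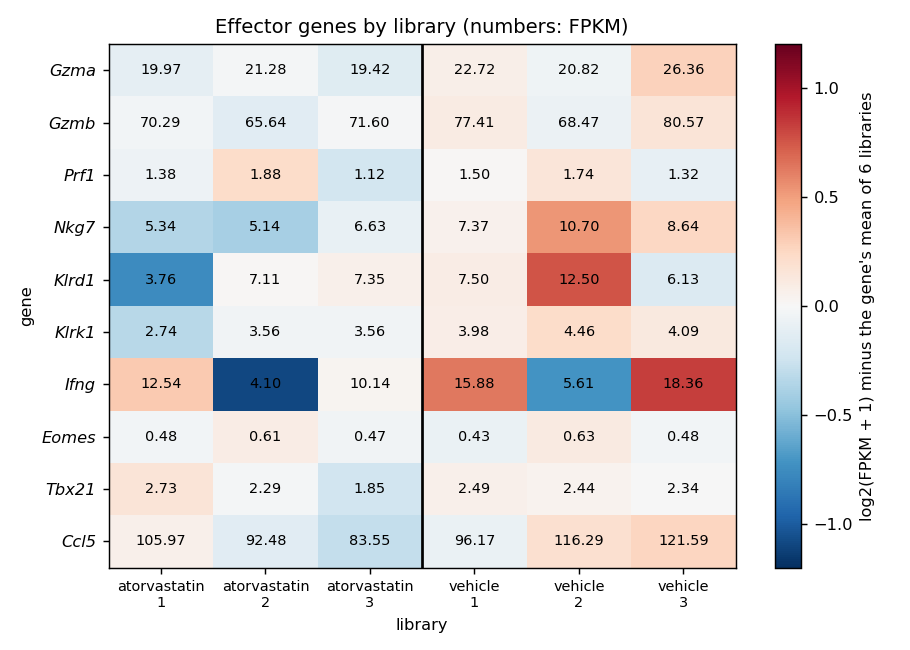
Levels of the 10 effector genes (rows) in the 6 libraries (columns; atorvastatin left of the line, vehicle right of it), with FPKM printed and colour for log2(FPKM + 1) minus the gene's mean over the 6 libraries. Ifng is lowest in library 2 of both groups (4.10 and 5.61 FPKM), and Klrd1 and Nkg7 are highest in vehicle library 2 (12.5 and 10.7 FPKM).

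Of the secreted products, Ifng (chromosome 10, 118441046 to 118445892) had 12.5, 4.10 and 10.1 FPKM with atorvastatin, against 15.9, 5.61 and 18.4 FPKM with vehicle. Library 2 was the lowest of both groups and the groups overlapped. The highest library was 4.48-fold above the lowest, the widest spread of the 10 genes. The log2 difference of -0.50 (SE 0.51) had a 95% interval from -1.70 to 0.71 and an adjusted p of 0.822 in limma. The interval holds both a large decrease and an increase. Without atorvastatin library 2 the difference was -0.07, without vehicle library 2 it was -0.98, without vehicle library 3 it was -0.21, without vehicle library 1 it was -0.30 and without atorvastatin library 1 it was -0.78. Part of Ifng is overlapped on the same strand by Gm49751, listed at 0.20 to 0.70 FPKM, and whether strand was used in the counting is not stated. Ccl5 (chromosome 11, 83525778 to 83530518), a chemokine that draws T cells and monocytes, had 106, 92.5 and 83.5 FPKM with atorvastatin, against 96.2, 116 and 122 FPKM with vehicle. Atorvastatin library 1 lay within the vehicle range, and the log2 difference was -0.24 (SE 0.16, limma adjusted p = 0.735). It was -0.03 with the length trend removed and -0.05 with array weights.

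The lineage factors stood at low levels. Tbx21 (chromosome 11, 97098071 to 97115331) had 2.73, 2.29 and 1.85 FPKM with atorvastatin, against 2.49, 2.44 and 2.34 FPKM with vehicle. The atorvastatin libraries spanned the vehicle range, with a log2 difference of -0.07 (95% interval -0.37 to 0.24). Eomes (chromosome 9, 118478212 to 118486132) had 0.48, 0.61 and 0.47 FPKM with atorvastatin, against 0.43, 0.63 and 0.48 FPKM with vehicle, and the exact permutation test gave p = 1. A peak of low values, sought within a preset range and read as 1 fragment, gave rough fragment numbers. They were 29 to 54 per library for Eomes, 55 to 103 for Prf1, 88 to 175 for Nkg7 and 1756 to 2515 for Gzmb. These numbers assume that the authors divided by a gene length close to the merged exons of GENCODE, and they set counting error only. The peak was weak, with 36.0 to 39.5% of values within 0.15 of a whole step, so the numbers are uncertain.

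**Figure D3:**
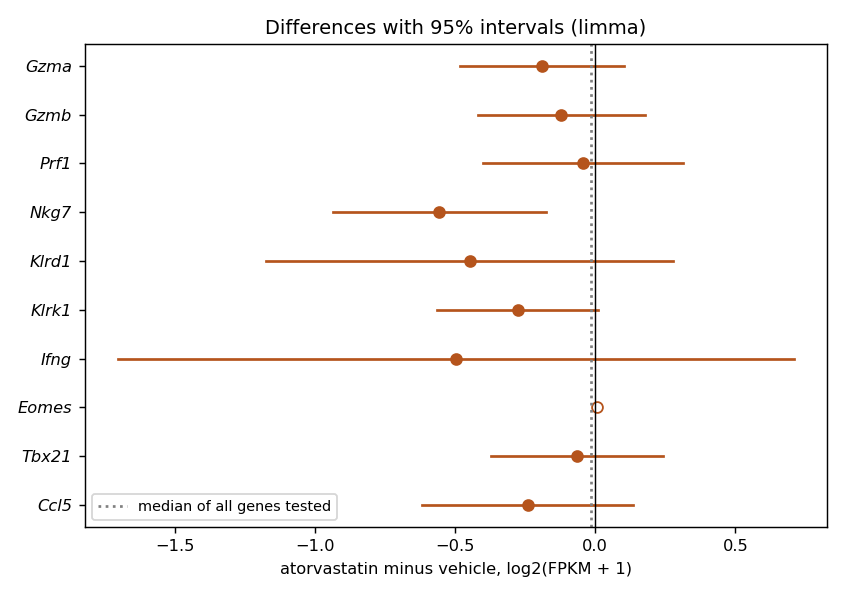
Difference between atorvastatin and vehicle in log2(FPKM + 1) for each effector gene (x axis), with the 95% interval from limma; the open point is Eomes, which was below the filter and has no interval. The interval of Nkg7 (-0.93 to -0.18) is the only one of the 9 that lies wholly below 0, before adjustment over 13590 genes.

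Vehicle libraries 2 and 3 were each the highest of the 6 libraries in 4 of the 10 genes, and atorvastatin library 3 was the lowest in 4.

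Markers of the cells that could carry the effector genes were set beside them, and their part in the results was not tested. All 11 T cell receptor complex genes were lower with atorvastatin (median log2 difference -0.23, 0 called), with summed levels of 121 to 146 FPKM with atorvastatin and 136 to 195 FPKM with vehicle. Trbc2, a beta chain constant segment, averaged 46.0 ± 4.65 FPKM (SD, n = 3) with atorvastatin and 59.5 ± 12.8 FPKM (SD, n = 3) with vehicle, while Trbc1 averaged 29.0 ± 4.05 FPKM with atorvastatin and 35.1 ± 10.9 FPKM with vehicle. Cd3e averaged 4.51 ± 1.01 FPKM with atorvastatin and 4.86 ± 1.57 FPKM with vehicle. The coreceptor genes of CD8 T cells were lower on average, with Cd8a at 2.89 ± 1.24 FPKM with atorvastatin and 3.52 ± 0.555 FPKM with vehicle, and Cd8b1 at 4.13 ± 1.13 FPKM with atorvastatin and 5.35 ± 1.00 FPKM with vehicle. Cd4, of helper and regulatory T cells, averaged 7.28 ± 0.906 FPKM with atorvastatin and 6.90 ± 2.38 FPKM with vehicle. Tcrg-C1, a constant segment of the gamma chain of gamma delta T cells, had 1.92, 3.11 and 3.19 FPKM with atorvastatin, against 3.61, 4.92 and 3.72 FPKM with vehicle. Its groups did not overlap (log2 difference -0.45, limma adjusted p = 0.692). Of 6 intraepithelial lymphocyte markers 5 were tested, and 4 were lower, with sums of 9.80 to 16.0 FPKM with atorvastatin and 13.9 to 16.4 FPKM with vehicle. This list is not independent, since Trdc and Tcrg-C1 are also in the T cell receptor complex list and Cd8a is also among the coreceptors. Ncr1 and Klrb1c, defining genes of NK cells, were low in both groups: Ncr1 averaged 0.923 ± 0.1504 FPKM with atorvastatin and 1.29 ± 0.457 FPKM with vehicle, and Klrb1c averaged 0.370 ± 0.271 FPKM with atorvastatin and 0.410 ± 0.407 FPKM with vehicle. Other listed killer lectin-like receptor genes averaged from 0.0117 (Klra4) to 9.40 FPKM (Klrb1b) over all 6 libraries, so these genes alone do not measure NK cell content. Of the 5 NK and ILC1 markers 4 were tested, 3 lower and 1 higher, and the list summed to 44.2 to 54.4 FPKM with atorvastatin and 43.2 to 60.9 FPKM with vehicle, most of it from Il2rb. The higher one, Itga1, an integrin chain named after its values were seen, had 3.68, 3.44 and 4.31 FPKM with atorvastatin, against 2.86, 2.76 and 3.06 FPKM with vehicle, with no overlap (log2 difference 0.30, limma adjusted p = 0.692). None of these marker lists held a gene listed at 0 in every library. Lists of cells outside the T and NK lineages were lower too: 6 of 6 B cell genes (median -0.45, 0 called, 4 without overlap) and 5 of 5 neutrophil genes (median -0.35, 0 called, 3 without overlap). These counts hold for FPKM as deposited, where 8.85% of all genes tested lay below without overlap. With equal summed FPKM that share was 3.05%, and whether the B cell and neutrophil genes then stay apart was not computed. All 7 macrophage genes tested were higher on average (median 0.26, 0 called). With equal summed FPKM without immunoglobulin genes 9 of the 11 T cell receptor complex genes were lower and 2 higher.

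Divided by the summed CD3 chains of the same library, a comparison added after the values were seen, none of the 10 genes kept the groups apart. The share of all genes that stay apart after this division was not computed, so the count cannot be judged. Whether T cell content accounts for the differences was not tested. The CD3 sum (Cd3d, Cd3e, Cd3g and Cd247) was 20.3, 24.8 and 19.8 FPKM with atorvastatin, against 24.6, 28.1 and 20.0 FPKM with vehicle. Per unit of that sum Nkg7 stood at 0.263, 0.208 and 0.334 with atorvastatin, against 0.2996, 0.381 and 0.431 with vehicle. Klrk1 stood at 0.135, 0.144 and 0.179 with atorvastatin, against 0.162, 0.159 and 0.204 with vehicle. For both genes atorvastatin library 3 reached into the vehicle range. The mean ratio of Gzmb was 3.24 with atorvastatin and 3.20 with vehicle, that of Prf1 0.0668 with atorvastatin and 0.0629 with vehicle, and that of Tbx21 0.107 with atorvastatin and 0.102 with vehicle. For these and for Eomes (0.0240 with atorvastatin and 0.0213 with vehicle) the mean was higher with atorvastatin, with overlap between the libraries.

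**Figure D4:**
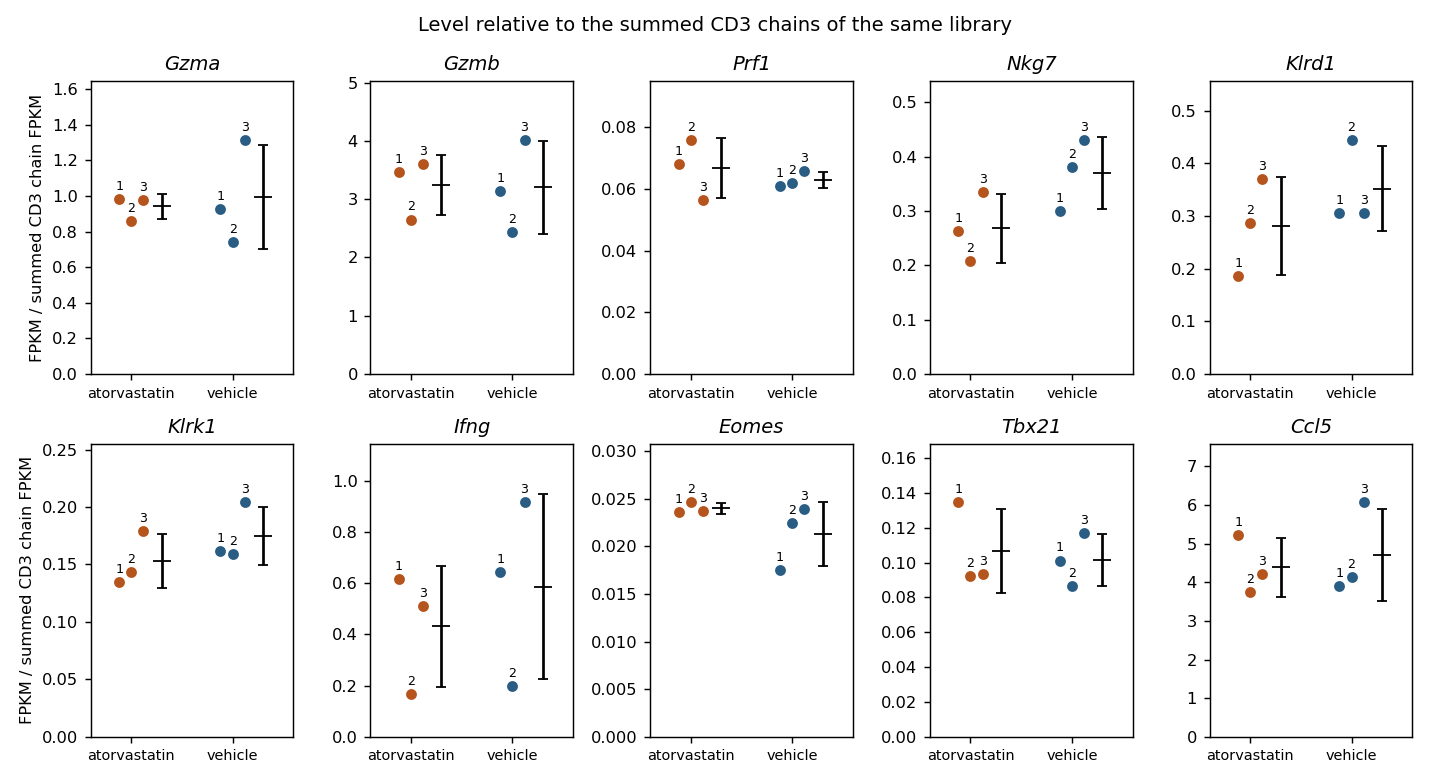
Level of each effector gene divided by the summed FPKM of the 4 CD3 chains of the same library (y axis, from 0) in atorvastatin and vehicle libraries (x axis); points are libraries with their number, and bars are mean ± SD. The groups overlap in all 10 genes, and Nkg7 averages 0.268 with atorvastatin and 0.371 with vehicle.

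Other genes of the killing machinery were taken from a fixed list of 20, of which 15 were tested and 3 (Gzmf, Gzmg and Gzmn) were listed at 0 in every library. Of the 15, 10 were lower and 5 higher with atorvastatin (median -0.17, 0 called). Serpinb9, an inhibitor of granzyme B, averaged 46.5 ± 5.63 FPKM (SD, n = 3) with atorvastatin and 61.3 ± 6.87 FPKM (SD, n = 3) with vehicle, and Srgn, the proteoglycan core on which granule proteins are packed, averaged 221 ± 15.2 FPKM with atorvastatin and 292 ± 38.6 FPKM with vehicle. Serpinb9 and Srgn had the smallest p-values of the list. The groups did not overlap in either gene (log2 difference -0.39 in both, limma adjusted p = 0.692), nor in Ctsw, a cathepsin of killer lymphocytes named after its values were seen. Lamp1, a membrane protein of lysosomes and granules, averaged 103 ± 11.02 FPKM with atorvastatin and 111 ± 14.5 FPKM with vehicle. Both Srgn and Lamp1 are made by many cell types.

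Of 22 NK receptor and adaptor genes, 11 were tested, 10 lower and 1 higher (median -0.24, 0 called), and 11 stayed below the filter. Hcst, the adaptor DAP10 through which NKG2D signals, had 3.86, 3.42 and 3.94 FPKM with atorvastatin, against 4.38, 5.14 and 5.21 FPKM with vehicle. Klrc1, the NKG2A chain that pairs with CD94, had 2.20, 2.36 and 2.22 FPKM with atorvastatin, against 2.58, 3.39 and 4.30 FPKM with vehicle. Both were named for the smallest p-values of the list. They were the only 2 of the 11 tested whose groups did not overlap, beside 8.85% of all genes that lay below. Their log2 differences were -0.32 (SE 0.11) and -0.42 (SE 0.16), with an adjusted p of 0.692 in limma. With the length trend removed the difference of Hcst was -0.06, and with array weights that of Klrc1 was -0.20. The most abundant genes of the list did overlap between groups: Il2rb, a receptor chain for IL-2 and IL-15, averaged 37.9 ± 5.21 FPKM with atorvastatin and 39.6 ± 9.50 FPKM with vehicle, and Tyrobp, the adaptor DAP12, averaged 25.3 ± 3.05 FPKM with atorvastatin and 30.1 ± 7.42 FPKM with vehicle. Of 15 ligands and receptors of the 10 genes' products, 11 were in the files and 7 were tested, 5 lower and 2 higher (median -0.06, 0 called). H2-T23, which encodes the CD94 ligand Qa-1, had 111, 97.4 and 106 FPKM with atorvastatin, against 126, 118 and 124 FPKM with vehicle. Of the interferon gamma receptor chains, Ifngr2 averaged 11.04 ± 1.12 FPKM with atorvastatin and 13.1 ± 0.425 FPKM with vehicle, without overlap, and Ifngr1 averaged 28.8 ± 7.27 FPKM with atorvastatin and 29.9 ± 7.51 FPKM with vehicle, with overlap. Ifngr2 and H2-T23 had the smallest p-values of this list.

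Inducers and factors of type 1 immunity lay on both sides of 0, with 12 of 21 tested genes lower and 9 higher (median 0.00, 0 called). Stat4, which carries the IL-12 signal to Ifng and Tbx21, had 31.4, 34.5 and 30.1 FPKM with atorvastatin, against 44.9, 48.8 and 36.4 FPKM with vehicle, with no overlap and a log2 difference of -0.42 (SE 0.14, adjusted p = 0.692). Il12a, a chain of IL-12, averaged 1.17 ± 0.245 FPKM with atorvastatin and 1.59 ± 0.220 FPKM with vehicle. Stat4 and Il12a were named for the smallest p-values of the list, so the lack of overlap in Stat4 follows in part from that choice. The most abundant members of the list were higher on average, Bhlhe40 at 221 ± 45.3 FPKM with atorvastatin and 177 ± 39.6 FPKM with vehicle, and Nfil3 at 84.8 ± 6.24 FPKM with atorvastatin and 75.0 ± 10.7 FPKM with vehicle, both with overlap. Of the 11 type 1 chemokines and cytokines, 6 were lower and 5 higher (median -0.06, 0 called). Lta, the cytokine lymphotoxin alpha, had 2.79, 1.64 and 2.98 FPKM with atorvastatin, against 4.76, 3.61 and 5.06 FPKM with vehicle (log2 difference -0.67, SE 0.19). Xcl1, a chemokine of NK and CD8 T cells, averaged 5.03 ± 0.386 FPKM with atorvastatin and 6.62 ± 0.471 FPKM with vehicle (log2 difference -0.34, SE 0.11, and -0.10 with the length trend removed). Lta and Xcl1 were named for the smallest p-values of the list. Both kept the groups apart and had an adjusted p of 0.692 in limma. The groups overlapped widely in the most abundant genes of the list, Cxcl10, at 535 ± 139 FPKM with atorvastatin and 566 ± 196 FPKM with vehicle, and Ccl4, at 84.4 ± 30.6 FPKM with atorvastatin and 78.6 ± 34.7 FPKM with vehicle. Downstream, 11 of 18 tested interferon gamma response genes were lower and 7 higher (median -0.04, 0 called). Gbp2 averaged 280 ± 30.0 FPKM with atorvastatin and 293 ± 49.0 FPKM with vehicle, Igtp averaged 233 ± 21.5 FPKM with atorvastatin and 253 ± 31.1 FPKM with vehicle, and the feedback inhibitor Socs1 averaged 29.0 ± 5.44 FPKM with atorvastatin and 33.7 ± 0.842 FPKM with vehicle. With equal summed FPKM the medians of 4 lists turned positive, at 0.01 for the ligands and receptors, 0.06 for the inducers and factors (6 lower and 15 higher), 0.01 for the chemokines and cytokines and 0.03 for the interferon gamma response (7 lower and 11 higher). The mean of Gbp6 was higher with atorvastatin, at 43.8 ± 6.498 FPKM, than with vehicle, at 35.0 ± 5.90 FPKM.

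**Figure D5:**
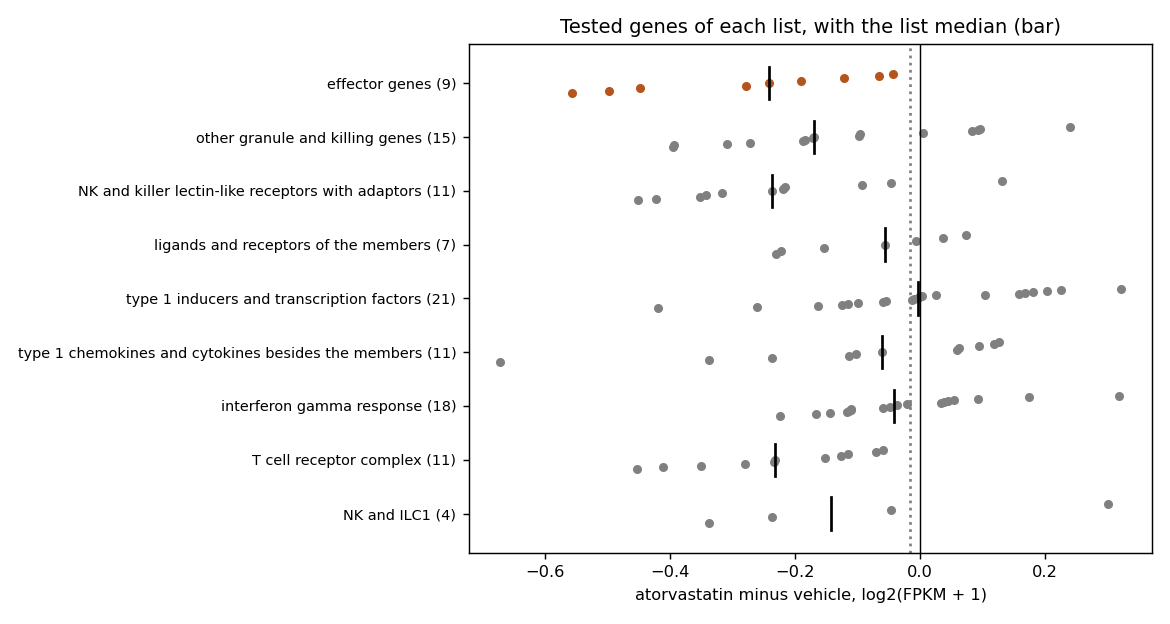
Difference between atorvastatin and vehicle in log2(FPKM + 1) (x axis) for the tested genes of each list (rows, number of genes in brackets); points are genes, black bars list medians, and the dotted line the median of all 13590 genes. The 9 effector genes and the 11 T cell receptor complex genes lie below 0 as deposited (medians -0.24 and -0.23), as do the 6 B cell genes, which are not drawn, while without immunoglobulin genes in the library sum 1 effector gene and 2 receptor complex genes lie above 0.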

How the data were processed

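Bulk RNA-seq covered 3 atorvastatin and 3 vehicle libraries of colonic lamina propria. FPKM per gene were used in the form the authors deposited, per the file headers. The submitters' processing notes name FastQC 0.11.2, Bowtie and build mm10. Which program quantified genes, with which annotation and strand option: not given in the sources used here. Values carry 2 decimals. In 854 to 1305 genes per library with a single transcript length of 300 to 600 nt, a peak of low values was sought within a preset range of step sizes. Read as 1 fragment, it puts the depth at roughly 16.0 to 21.7 M fragments per library. Within 0.15 of a whole step lay 36.0 to 39.5% of values, not far above the share that evenly spread values would give. The depth is therefore uncertain and counts were not recovered. Symbols came from GENCODE mouse release 21 (GRCm38), with the same start and end for 51957 of 55401 gene IDs. Promoters came from RefSeq (GRCm38.p6).

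Genes at 1 FPKM or more in at least 3 libraries (13590) were tested on log2(FPKM + 1) in R 4.3.3 by limma 3.58.1 with a mean-variance trend, and p-values were adjusted after Benjamini and Hochberg with a threshold of 0.05. Differences are atorvastatin minus vehicle and understate changes of low genes. The fit was run on simulated data with independent noise and planted changes larger than any difference of the 10 genes. That run does not bear on differences as small as theirs. The 10 genes and all lists were chosen with earlier results of these data known. Named besides them are the 2 most abundant and the 2 smallest-p genes of each of 6 pathway lists, and the 2 most abundant genes of each marker list with Cd3e, Cd8a, Cd4, Ncr1 and Klrb1c. Gene values are printed for the T cell, coreceptor, intraepithelial and NK lists, and the other marker lists are given as counts, without their genes: lower with atorvastatin were 2 of 5 plasma cell, 2 of 2 type 3 lymphocyte, 2 of 4 regulatory T cell, 5 of 5 mast cell, 2 of 4 plasmacytoid dendritic cell, 5 of 5 colonic epithelium, 1 of 4 fibroblast and 0 of 3 endothelium genes tested, with 0 called. Alternatives covered the pseudocount, the filter, library scaling, a transcript length trend (locally weighted, span 0.4), the variance model, a replicate block and each library left out.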

Additional observations from a re-analysis of the deposited data

How the results depend on the processing

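None of the 9 genes tested passed an adjusted p of 0.05 under any of the 18 alternatives, nor did Eomes in the fit that held it, where low genes were kept (adjusted p = 0.988), and 7 of the 9 (all but Prf1 and Tbx21) had a negative difference under each of them. The difference of Nkg7 ranged from -0.67 to -0.37 (adjusted p 0.142 to 0.999), that of Klrk1 from -0.34 to -0.18, that of Klrd1 from -0.64 to -0.18, that of Ifng from -0.98 to -0.07, that of Gzma from -0.26 to -0.03, that of Gzmb from -0.19 to -0.01 and that of Ccl5 from -0.34 to -0.03. Over all genes, 4 were called with array weights, and 0 to 3 when single libraries were left out (1 without atorvastatin library 1 and 3 without atorvastatin library 3). Deviations of same-numbered libraries correlated at -0.11, 0.14 and -0.02, and those of unlike number at -0.16 to 0.19. With 3 libraries per group this cannot decide whether the replicate numbers pair the libraries. With the replicate block 0 genes were called. The unadjusted limma p was then 0.0196 for Nkg7 (-0.56) and 0.0195 for Ifng (-0.50), which had 0.360 without the block. Both had an adjusted p of 0.728 with the block.

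Small differences turned sign, and the causes were not tested. With equal summed FPKM they became 0.0207 (Il2rb), 0.0104 (Ifngr1), 0.0091 (Cxcl10) and 0.0102 (Gbp2). Without immunoglobulin genes in that sum they became 0.0128 (Prf1), 0.0452 (Il2rb), 0.0351 (Ifngr1), 0.0341 (Cxcl10) and 0.0352 (Gbp2). With the length trend removed they became 0.0143 (Prf1), 0.0031 (Tyrobp), 0.0165 (Ifngr1) and 0.0077 (Cxcl10). With array weights they became 0.0179 (Lamp1), 0.1332 (Tyrobp), 0.0015 (Ifngr1) and 0.0746 (Cxcl10). Leaving out single libraries gave ranges of -0.1626 to 0.0584 for Prf1, -0.1606 to 0.0335 for Tbx21, -0.1635 to 0.0083 for Lamp1, -0.2025 to 0.129 for Il2rb, -0.2314 to 0.1354 for Ifngr1, -0.3173 to 0.191 for Cxcl10, -0.145 to 0.4609 for Ccl4 and -0.2057 to 0.0323 for Gbp2. By the rough fragment numbers, Eomes and Prf1 had the fewest fragments, so depth would limit them most.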

Other observations

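The order of the 6 libraries by Ifng was shared by other cytokine genes. These were noticed after their values were seen. Il22, the cytokine of type 3 lymphocytes that acts on epithelium, had 46.4, 22.4 and 32.1 FPKM in atorvastatin libraries 1, 2 and 3, against 57.9, 32.1 and 84.8 FPKM in vehicle libraries 1, 2 and 3. Il9 had 1.94, 0.24 and 0.88 FPKM with atorvastatin, against 2.07, 0.69 and 3.00 FPKM with vehicle. Both rank the libraries exactly as Ifng does, with library 2 lowest in each group, and so does Ctsc, the protease that activates granzymes. For Il22 this order rests on a near tie, 32.12 FPKM in atorvastatin library 3 and 32.07 FPKM in vehicle library 2. In all, 83 of the 13590 genes tested, Ifng included, had this order. Il5, Il13, Il17f and Csf2 did not share it. Atorvastatin library 2 and vehicle library 2 also had the highest share of immunoglobulin genes (47.9 and 38.4% of summed FPKM) and the highest CD3 sums (24.8 and 28.1 FPKM) in their groups.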
